A study of Mus musculus with 96 samples.

Results

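The genes described here make fatty acids from citrate and acetate, supply the NADPH that this synthesis consumes, lengthen and desaturate the products, assemble them into triglyceride, regulate the pathway or bring fructose into it. They were named by symbol: all 35 listed genes had counts in the deposited table, out of 35670 genes with any count, and all 35 passed the filter on low counts that left 15772 genes for testing. The list was drawn up with earlier results of these data known. By role they were 7 genes of de novo synthesis (Acly, Acss2, Slc25a1, Acaca, Acacb, Fasn, Aacs), 5 of NADPH supply and the pentose phosphate path (Me1, G6pdx, Pgd, Tkt, Taldo1), 8 elongases and desaturases (Elovl1, Elovl2, Elovl5, Elovl6, Scd1, Scd2, Fads1, Fads2), 7 of triglyceride assembly (Gpam, Agpat2, Agpat3, Dgat1, Dgat2, Mogat1, Pnpla3), 6 regulators (Srebf1, Mlxipl, Nr1h3, Insig2, Thrsp, Mid1ip1) and 2 of fructose entry (Khk, Tkfc).

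In the fed liver, citrate leaves the mitochondria through the carrier Slc25a1, Acly splits it into acetyl-CoA, the acetyl-CoA carboxylases Acaca and Acacb make malonyl-CoA, and fatty acid synthase (Fasn) builds palmitate at the cost of NADPH. Insulin acts on the pathway largely through SREBP-1c (product of Srebf1), which INSIG proteins hold in the endoplasmic reticulum, and sugars act through ChREBP (product of Mlxipl). The oxysterol receptor LXRalpha (product of Nr1h3) drives Srebf1 transcription. BMAL1 (gene Arntl) activates, and CRY1 and CRY2 repress, transcription from E-boxes in the circadian clock, and feeding time sets a further daily signal in liver.

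Poly(A) RNA of livers from mice aged 12 to 16 weeks was sequenced in 96 libraries. The labels gave 2 lines, each with its own wild type (WT): a Bmal1 line (WT and KO) and a line for both cryptochromes, labelled Cry1/2_dKO where knocked out (Cry KO here). Each genotype was fed ad libitum (AL) or with feeding restricted to the night (RF), and each of these 8 groups had 12 libraries: 2 at each of the zeitgeber times (ZT) 0, 4, 8, 12, 16 and 20, from 2 numbered series of 6 libraries. The labels used here state neither strain, sex, light cycle, nor whether the knockouts are whole-body. They do not say whether libraries came from separate animals or what a series number marks, so the p-values reflect library-to-library spread alone, which may be partly technical.

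Libraries held 1478963 to 35568856 counts (median 25422366), and the 35 genes held 1.58% of all counts. The 3 shallowest libraries were night-fed Cry KO series 3 at ZT4, AL Cry KO series 2 at ZT20 and night-fed Bmal1 KO series 2 at ZT20. There were 7 libraries that stood apart by the acute phase gene Saa1 (above 5000 CPM, counts scaled to one common library size), the interferon gene Isg15 (above 50 CPM) or the pancreatic gene Ctrb1 (above 40 CPM): night-fed Bmal1 KO series 4 at ZT0 and ZT20, night-fed Cry KO series 5 at ZT4 and ZT8, AL Cry WT series 2 at ZT12 and series 4 at ZT8, and night-fed Cry WT series 6 at ZT12. Arntl ran from 0.272 to 35.3 CPM (median 22.3) in AL Bmal1 WT and from 9.71 to 14.95 CPM (median 11.3) in its KO, and under RF from 1.01 to 45.04 CPM (median 23.6) and from 13.0 to 21.2 CPM (median 14.9). Its median was thus lower in the KO while the mean log2 difference over the 6 times was positive (0.30, adjusted p = 0.104, under AL and 0.64, adjusted p = 0.000336, under RF). Counts over the whole gene do not check the deletion. Cry1 and Cry2 counts were lower in the Cry KO (log2 -1.32 and -0.64 under AL, -1.31 and -0.83 under RF), with 5.38 to 9.95 CPM of Cry1 left in the AL Cry KO against 5.95 to 51.4 CPM in its WT. The hepatocyte markers were present in every library (summed level of 6 genes 28690 to 130000 CPM), while of 6 adipocyte markers 4 (Adipoq, Plin1, Lep, Retn) had a median of 0 and the sum was 4.87 to 28.8 CPM.

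Levels below are CPM scaled by TMM factors, given as the lowest, median and highest of the 12 libraries of a group. A log2 difference is the mean over the 6 times, weighted equally, ± its standard error, with the adjusted p of edgeR's quasi-likelihood test (Benjamini-Hochberg over 15772 genes). A gene is called when that p is under 0.05.

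Levels per length set the members far apart in WT liver. Averaged over the 4 WT groups, the desaturase Scd1 led at an RPKM of 1891 (CPM per kilobase of exon), followed by Thrsp (266 RPKM), a small acidic protein that activates lipogenic enzymes, the desaturase Fads2 (197 RPKM) and Dgat2 (168 RPKM), which adds the last acyl chain of triglyceride. The core enzymes Acly and Fasn stood at 85.8 and 84.5 RPKM, and the regulators Srebf1 and Mlxipl at 65.4 and 65.0 RPKM, too close to order. At the low end were Scd2 (2.23 RPKM), G6pdx (2.21 RPKM), the entry enzyme of the pentose phosphate path, Pnpla3 (1.34 RPKM), a triglyceride lipase and acyltransferase, and Mogat1 (0.234 RPKM). Pnpla3 had no count in 2 libraries and Mogat1 none in 8, so both rest on few reads.

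Reads of 12 members can be mixed with those of a gene whose exons overlap on the other strand, because the strand setting of the counting is not given in the sources used here. For 8 of them the other gene held over 1% of the member's count. The overlap mattered most for G6pdx, where 13.6% of exon bases are shared with Ikbkg (227452 counts in all, against 14441 for G6pdx), for Tkfc, where 12.9% are shared with Cyb561a3 and 7.1% with Ddb1, and for Acss2, where 3.89% are shared with Gss. Scd1 (chr19:44394455-44407879, mm10, minus strand) and Scd2 (chr19:44293674-44306864, plus strand) are neighbouring paralogs, and how reads matching both were counted is not given either.

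The first question was when in the day these genes peaked in WT liver. In both lines and under both feeding regimens, 5 members passed as rhythmic: Thrsp, Elovl6 (which lengthens palmitate to stearate), Agpat2 and Dgat2 of triglyceride assembly, and Insig2, whose product retains SREBP in the endoplasmic reticulum. A gene counted as rhythmic when its 24 h cosine had an adjusted p under 0.05 and spanned 0.5 log2 units or more from trough to peak. The called members numbered 10 in AL Bmal1 WT, 9 in night-fed Bmal1 WT, 12 in AL Cry WT and 10 in night-fed Cry WT, against 9.97%, 12.8%, 6.67% and 18.9% of all genes tested. Of these, 8, 7, 11 and 8 had a fitted peak in the ZT12 to ZT24 part of the cycle, against 825 of 1573, 1091 of 2012, 522 of 1052 and 1463 of 2985 called genes overall. The median fitted range over the 35 members was 0.87, 0.80, 0.86 and 0.72 log2 units, against 0.46, 0.46, 0.41 and 0.52 over all genes.

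Thrsp (chr7:97412938-97417730, minus strand) had one of the widest rhythms. In AL Bmal1 WT its 2 libraries at ZT16 held 945 and 1758 CPM, within a group that ran from 108 to 1758 CPM (median 628). The fitted range was 3.17 log2 units with a peak at ZT15.3 (adjusted p = 0.00104), 2.73 at ZT16.5 under RF (0.00399), and in Cry WT 3.86 at ZT15.5 under AL (2.33e-05) and 3.24 at ZT16.6 under RF (0.000126). Thrsp lies 15.79 Mb from Arntl, so in the Bmal1 line the knockout and a flanking segment of another strain cannot be told apart.

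Insig2 (chr1:121304353-121332589, minus strand) peaked on the other side of the day from Thrsp. Its fitted peak lay at ZT1.13 in Bmal1 WT under either feeding regimen and at ZT0.285 (AL) and ZT0.232 (RF) in Cry WT, with ranges of 2.06, 2.16, 2.46 and 2.20 log2 units and adjusted p of 3.23e-06, 3.51e-07, 2.72e-08 and 1.30e-07. At ZT12 the 2 AL Bmal1 WT libraries held 68.6 and 73.7 CPM and the 2 AL Cry WT libraries 52.5 and 53.0 CPM.

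Pnpla3 had the widest fitted ranges of the members in 3 WT groups, at very low levels: 4.57 log2 units (AL Bmal1 WT, peak ZT16.4, adjusted p = 0.00294), 3.98 (RF Bmal1 WT, peak ZT21.2, 0.0137) and 5.45 (AL Cry WT, peak ZT18.3, 0.000133). Its AL Cry WT libraries ran from 0.0904 to 27.3 CPM with a median of 0.667 CPM. Elovl6 peaked at ZT15.6 and ZT16.4 in AL Bmal1 and AL Cry WT (ranges 1.87 and 2.22, adjusted p = 0.0146 and 0.00452) and at ZT16.4 and ZT17.7 in the night-fed WT (1.66 and 1.62, 0.0276 and 0.0311). Aacs, the cytosolic acetoacetyl-CoA synthetase, was called in AL Bmal1 WT only among the WT groups (2.05 at ZT16.8, adjusted p = 0.0306), and the elongase Elovl5, which acts on polyunsaturated chains, in the night-fed WT groups (1.79 at ZT2.87 in Bmal1 WT, 0.000318, and 1.68 at ZT2.64 in Cry WT, 0.000725). Elovl5 in night-fed Bmal1 WT stood at 791 and 871 CPM at ZT4 and at 166 and 201 CPM at ZT16, so the pairs were far apart.

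Fasn (chr11:120805846-120824547, minus strand) passed in AL Cry WT (range 2.22, peak ZT16.5, adjusted p = 0.0145) but not in AL Bmal1 WT (1.61, 0.0949), night-fed Bmal1 WT (1.33, 0.240) or night-fed Cry WT (1.52, 0.128). Srebf1 (chr11:60199089-60222581, minus strand) passed in no WT group, with fitted ranges of 1.16, 0.87, 1.09 and 0.91 log2 units (adjusted p = 0.151, 0.381, 0.221 and 0.243). These lists rest on both series: with either series of a group left out, 3 to 4 members were called in AL Bmal1 WT, 1 to 2 in night-fed Bmal1 WT, 2 to 6 in AL Cry WT and 1 to 6 in night-fed Cry WT. A feeding difference of the rhythm itself was called for 0 of 35 members in Bmal1 WT and 0 in Cry WT by edgeR (2 and 5 members at an unadjusted p under 0.05, and 0 by DESeq2 in both), against 0.0127% and 0.0888% of all genes.

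**Figure D1:**
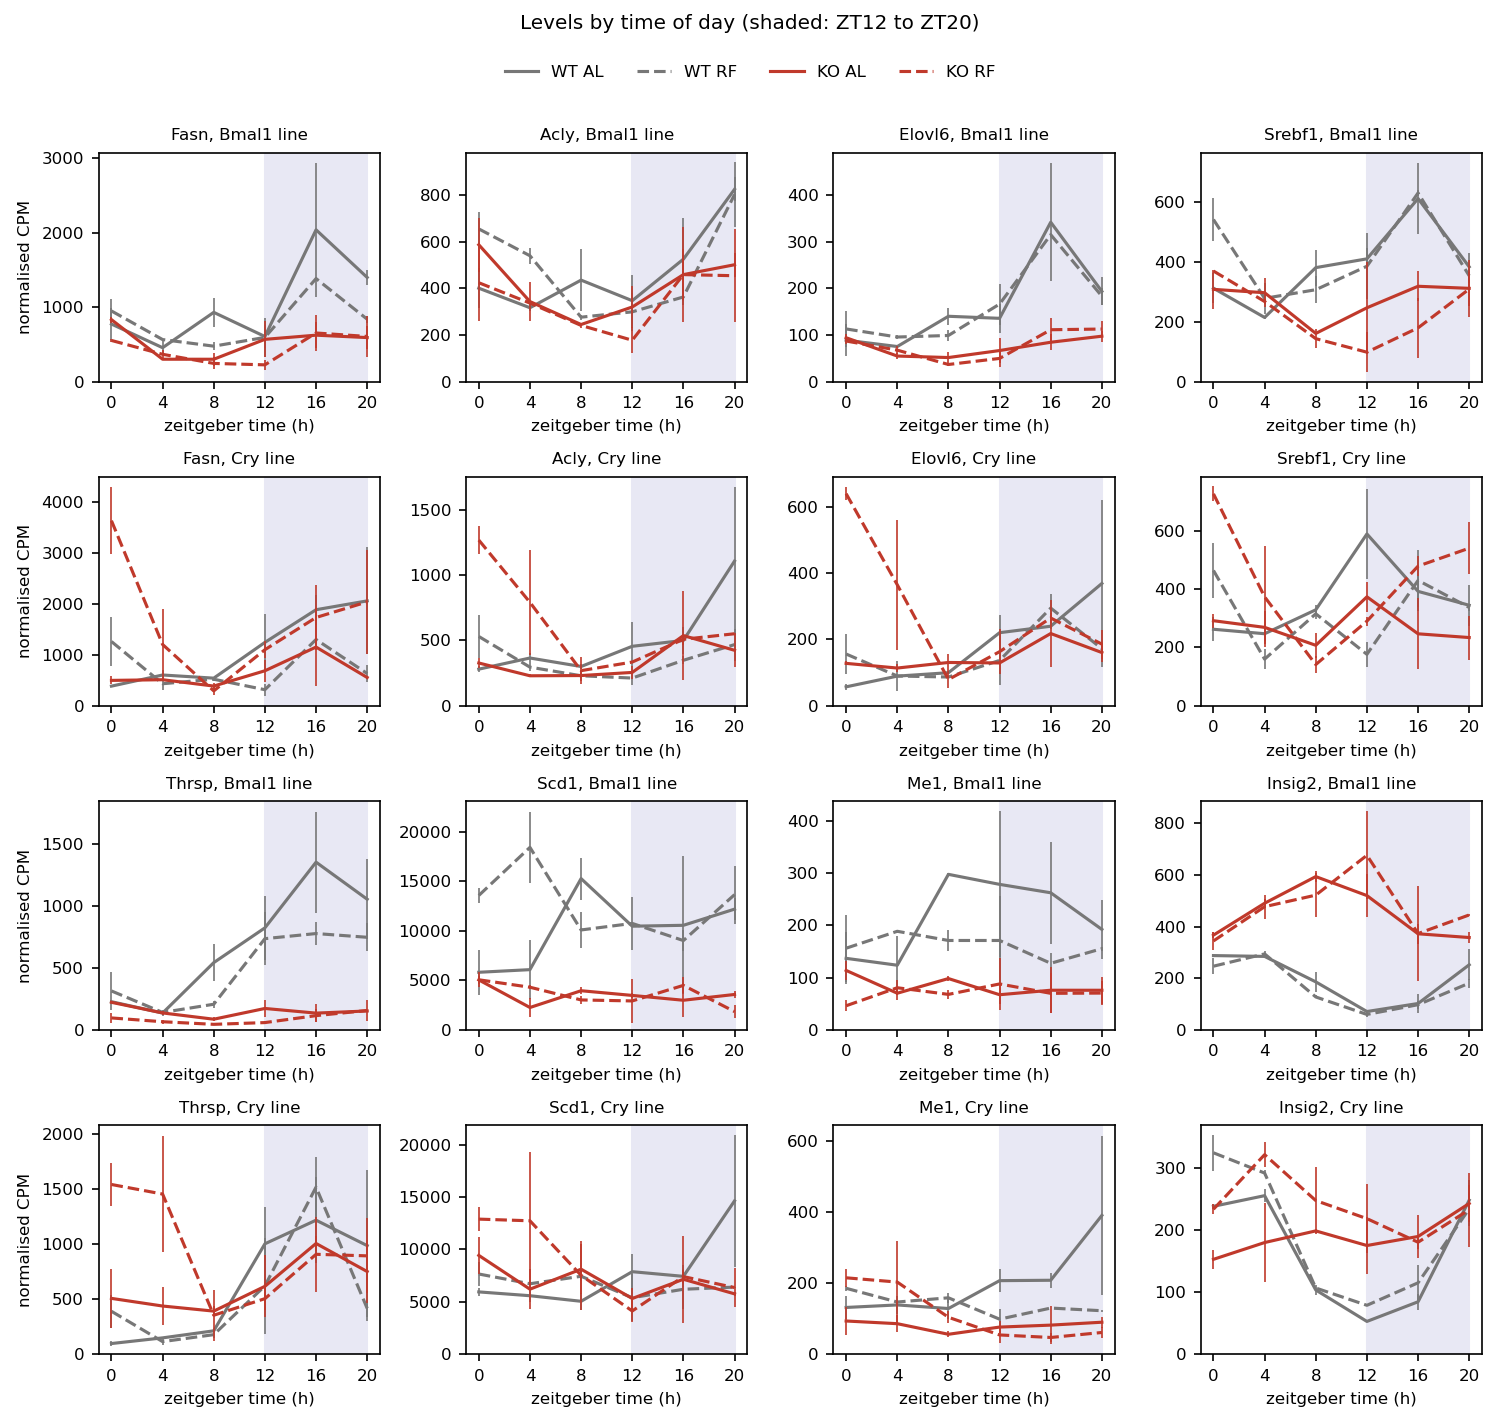
Level of 8 members (y axis, CPM) by zeitgeber time (x axis, h) in the Bmal1 and Cry lines; lines join the mean of 2 libraries and bars span them, with WT in grey, KO in red, AL solid and RF dashed, and ZT12 to ZT20 shaded. Insig2 falls to 68.6 and 73.7 CPM at ZT12 in AL Bmal1 WT while the AL Bmal1 KO holds 438 and 602 CPM, and Thrsp at ZT16 reaches 945 and 1758 CPM in AL Bmal1 WT against 65.6 and 205 CPM in the KO.

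In the Bmal1 knockout the lipogenic genes were mostly lower and Insig2 and Scd2 were higher, under either feeding regimen. Under AL, 18 of 35 members fell and 2 rose (24.4% of all genes were called), and under RF 17 fell and 3 rose (20.6%). The members' median log2 difference was -0.44 under AL and -0.41 under RF, against 0.02 and 0.01 over all genes tested, and 29 of the 35 had a negative value in each. Of the 18 and 17 genes that fell, 14 were shared (77.8% and 82.4% of the lists): Acacb, Dgat2, Elovl6, Fads1, Fads2, Fasn, Gpam, Khk, Me1, Mlxipl, Pnpla3, Scd1, Thrsp and Tkfc. Dgat2, Fads2, Scd1 and Thrsp kept their call under both regimens in all 12 alternative fits of each; the other genes of this list lost it in 1 or more. These comparisons share no library. Under AL the count was 12 called members without Bmal1 KO series 1, and with series as a random effect (limma-voom) it was 8 under each regimen.

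Of 6 hepatocyte markers, 2 were called lower in this comparison under AL and 1 under RF. The summed level of 6 hepatocyte markers was 28690 to 49150 CPM in the AL Bmal1 KO and 68150 to 120600 CPM in its WT, with no overlap, and 32750 to 47440 against 45070 to 93670 CPM under RF, with overlap. Alb, the albumin gene, made up most of this sum (median 60880 CPM over all libraries, against 77450 CPM for the sum). It was lower (log2 -1.77, adjusted p = 5.01e-15 under AL and -1.27, 1.45e-10 under RF). Ttr was also lower under AL (-0.54, 0.00263) but was not called under RF (-0.27, 0.164). Apoa1, Serpina1c, Tat and Cps1 were not called. Of these, Cps1 (0.27 under AL and 0.35 under RF) and Serpina1c (0.06 and 0.10) had positive values. Apoa1 (-0.28 and -0.17) and Tat (-0.20 and -0.21) had negative values. Markers of other cell types moved too. Of 5 cholangiocyte markers, 2 were higher under AL and 1 under RF. Under each regimen, 1 of 6 Kupffer cell markers and 1 of 3 erythroid markers were lower. Under RF, 3 of 8 B and T cell markers and 1 of 6 stellate cell markers were also lower. No tested endothelial, adipocyte, pancreas or neutrophil marker was called. The part of these marker differences in the members' result was not tested. In whole liver, fewer cells of a type and less RNA per cell cannot be told apart.

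Among the regulators, Insig2 had the smallest adjusted p of all members. It stood at 66.3, 209 and 312 CPM in AL Bmal1 WT and at 334, 424 and 617 CPM in the KO, so every KO library was above every WT library. The difference was 1.34 ± 0.14 log2 units (adjusted p = 2.69e-11), higher at 6 of 6 times, and it held in all 12 alternative fits (1.23 to 1.42). Under RF the levels were 51.6, 148 and 304 CPM in WT and 190, 445 and 846 CPM in the KO, overlapping between 190 and 304 CPM, with a difference of 1.66 ± 0.14 (3.62e-14). At ZT12, near the WT trough, night-fed WT held 51.6 and 68.0 CPM and night-fed KO 506 and 846 CPM.

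Thrsp went the other way. It stood at 108, 628 and 1758 CPM in AL WT and 65.6, 146 and 242 CPM in AL KO, with overlap at the low end. The differences were -1.84 ± 0.30 (adjusted p = 2.68e-06, lower at 5 of 6 times) under AL and -2.27 ± 0.30 (3.07e-08, lower at 6 of 6 times) under RF, where WT held 130, 493 and 949 CPM and KO 39.3, 67.4 and 240 CPM. Srebf1 under RF held 225, 364 and 641 CPM in WT and 30.5, 255 and 370 CPM in KO (-0.95 ± 0.21, 0.000509), while under AL the difference missed the threshold (-0.46, 0.103). Mlxipl fell under both regimens (-0.49 and -0.44), Nr1h3 under AL (-0.20) and Mid1ip1, which promotes assembly of acetyl-CoA carboxylase into filaments, under RF (-0.89).

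Of the 8 elongases and desaturases, 4 fell and 1 rose under each regimen. Scd1, which puts the double bond into stearate, held 3111, 10460 and 17490 CPM in AL WT and 1261, 3658 and 5422 CPM in AL KO, with overlap. Under RF its WT libraries held 7944, 12340 and 22010 CPM and its KO libraries 699.8, 3876 and 5820 CPM, with no overlap. The differences were -1.46 ± 0.26 (adjusted p = 2.17e-05) and -1.84 ± 0.27 (2.65e-07).

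Its paralog Scd2 rose from 7.63, 10.4 and 21.3 CPM in AL WT to 16.9, 43.0 and 85.0 CPM in AL KO (1.91 ± 0.24, adjusted p = 1.10e-08) and by 1.43 under RF (4.98e-06), higher at 6 of 6 times in both. Even so Scd2 stayed far below Scd1. Fads2, the delta-6 desaturase, fell by 0.77 ± 0.13 under AL (1.02e-05) and by 0.87 ± 0.13 under RF (8.94e-07), where WT held 484, 582 and 1748 CPM and KO 292, 358 and 477 CPM with no overlap. Fads1 fell by 0.46 and 0.59 and Elovl6 by 0.98 and 1.04.

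**Figure D2:**
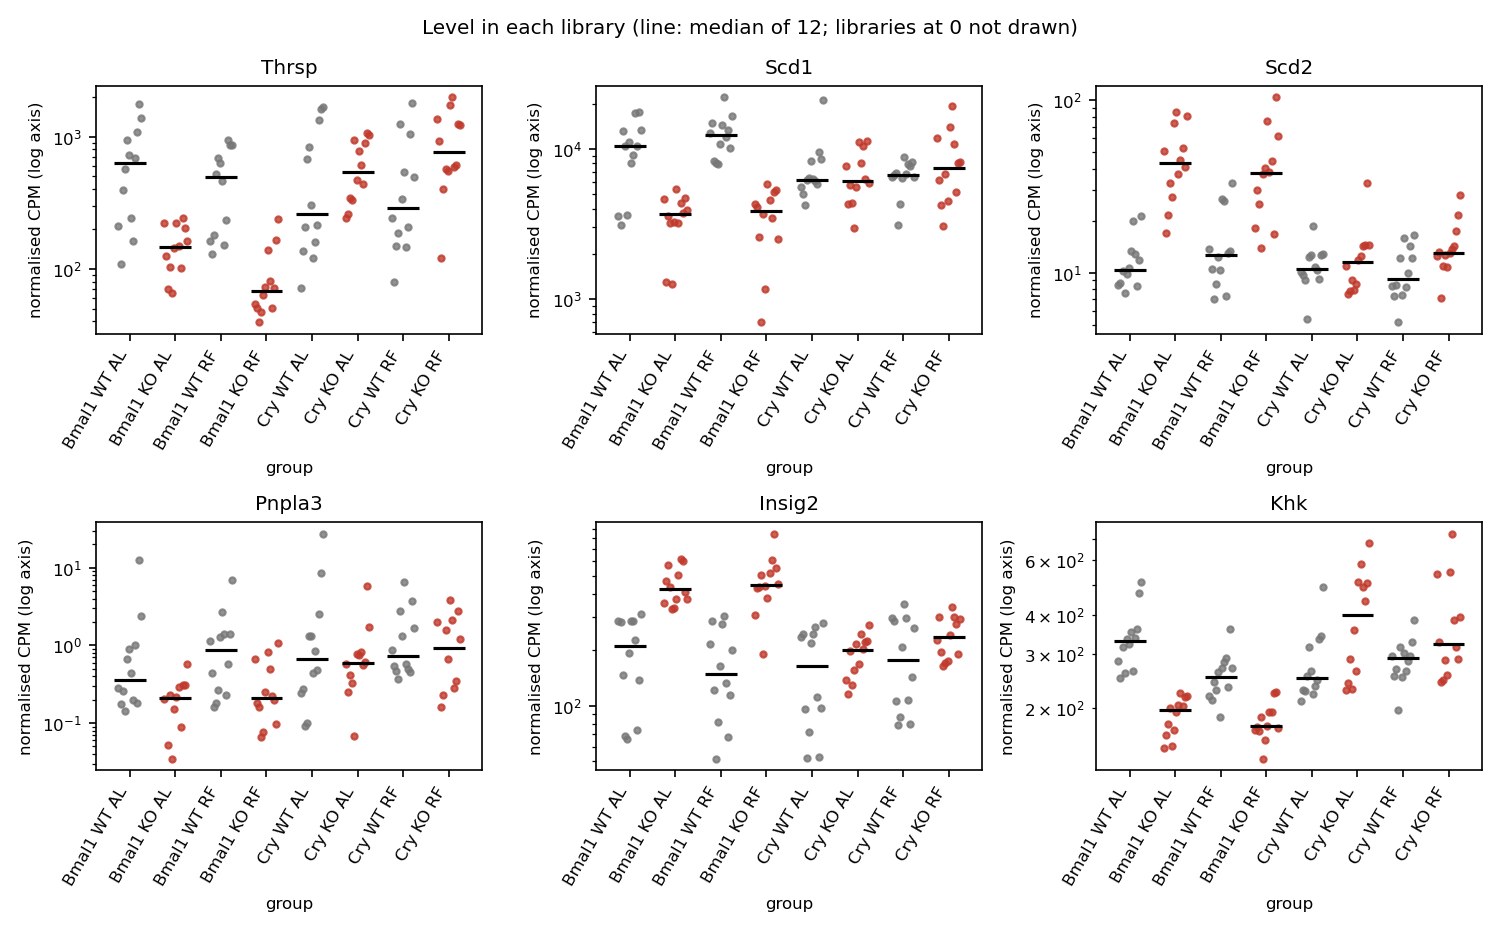
Level of Thrsp, Scd1, Scd2, Pnpla3, Insig2 and Khk in each library (points; y axis, CPM on a log scale) of the 8 groups, with WT in grey, KO in red and a line at the group median; libraries at 0 are not drawn. Insig2 in the AL Bmal1 KO (334 to 617 CPM) lies above every AL Bmal1 WT library (66.3 to 312 CPM), and Khk in the AL Bmal1 KO (149 to 224 CPM) lies below its WT (250 to 509 CPM).

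The enzymes of synthesis and NADPH supply fell in part. Of the 7 de novo genes, 3 fell under AL (Fasn, Acacb, Aacs) and 2 under RF (Fasn, Acacb), and none rose. Fasn held 359, 871 and 2933 CPM in AL WT and 211, 443 and 870 CPM in AL KO, with wide overlap (-0.86 ± 0.25, adjusted p = 0.00742), and under RF 333, 787 and 1403 against 159, 366 and 899 CPM (-0.89 ± 0.25, 0.00646). Fasn lost its call with series as a random effect, under AL without KO series 1 or WT series 8, and under RF without KO series 2 or WT series 4. Acly, Acaca, Acss2 and Slc25a1 were called under neither regimen. Malic enzyme Me1, the main NADPH source beside the pentose phosphate path, fell by 1.31 ± 0.27 (0.000181) and 1.21 ± 0.27 (0.000562), and Tkt, the transketolase, fell by 0.32 under AL. Me1 missed the threshold with series as a random effect under both regimens (adjusted p = 0.0747 under RF) and, under AL, without WT series 8 (-0.71, 0.0884).

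In triglyceride assembly 4 of 7 members fell under each regimen, among them Dgat2 (372, 487 and 819 CPM in AL WT, 276, 401 and 452 CPM in AL KO; -0.49 ± 0.08, adjusted p = 3.24e-06). Dgat2 lies 14.0 Mb from Arntl, and the same limit holds. Gpam, which makes the first step of glycerolipid synthesis, fell by 0.47 and 0.59, Dgat1 by 0.31 under AL, and Pnpla3 by 1.78 and 1.86 from medians of 0.361 CPM (AL WT) and 0.861 CPM (RF WT). Gpam lost its call with series as a random effect (adjusted p = 0.382 under AL and 0.161 under RF). It also lost it under AL with the replicate block and without KO series 1, KO series 8 or WT series 8 (-0.14, 0.664, without the last), and under RF without KO series 2, WT series 2 or WT series 4. Pnpla3 lost its call with series as a random effect and whichever series was left out, under both regimens. Mogat1 under RF held 0.0286, 0.396 and 1.34 CPM in WT and 0, 0.0779 and 0.234 CPM in KO. The acyltransferase Agpat3 rose under RF, from 172, 212 and 243 CPM to 198, 292 and 483 CPM with overlap (0.50 ± 0.08, 1.46e-06).

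Both fructose genes fell under both regimens. Ketohexokinase Khk (chr5:30921431-30931248, plus strand) held 250, 330 and 509 CPM in AL WT and 149, 198 and 224 CPM in AL KO, with no overlap (-0.82 ± 0.15, adjusted p = 2.87e-05, called in all 12 alternative fits). Under RF it fell by 0.48. That RF call was lost with series as a random effect and without KO series 4, WT series 2 or WT series 4. Tkfc, the triokinase that follows Khk, fell by 0.70 and 0.39, with the read overlap given above. Its AL call held in all 12 alternative fits. Its RF call was lost with series as a random effect and whichever series was left out.

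The Cry knockout gave another picture, with more members higher than lower. Under AL, 10 members rose and 5 fell, while of all genes 3102 rose and 2103 fell (33% called). Under RF, 9 members rose and 0 fell, while of all genes 518 rose and 476 fell (6.3%). More genes rose than fell under AL over all genes too, and 19 members had a positive and 16 a negative value there. Of the RF comparison's 35 members, 15 had an unadjusted p under 0.05, and DESeq2 called 10. The members' median log2 difference was 0.07 under AL and 0.35 under RF, against -0.03 over all genes in both. Of the 10 and 9 that rose, 5 were shared (50% and 55.6%): Elovl5, Insig2, Slc25a1, Tkfc and Tkt.

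Most of these calls rested on single series. Under AL, 1 member (Me1) was called without Cry KO series 2, 23 without Cry KO series 1, 7 without Cry WT series 2 and 8 without Cry WT series 4. Under RF, 1 was called without Cry KO series 5, 1 without Cry WT series 6, 8 without Cry WT series 9 and 11 without Cry KO series 3. Without the 7 libraries that stood apart, 2 (Tkt and Tkfc) were called under RF. With series as a random effect, 1 was called under AL (Dgat1) and 1 under RF (Tkt), and fitting the AL Cry groups alone called 7. Of the libraries with pancreatic transcripts, 2 are in night-fed Cry KO series 5, where the summed level of 6 pancreas markers reached 835 CPM against at most 0.497 CPM in night-fed Cry WT. The part of these transcripts in the members' result was not tested. Under AL, markers of other cell types moved with the Cry comparison: of 5 cholangiocyte markers 3 were higher and 1 lower in the KO, of 6 stellate cell markers 3 were lower, of 6 Kupffer cell markers 1 was lower, of 8 B and T cell markers 1 was higher, and of 2 tested neutrophil markers 1 was higher. Their part in the members' result was not tested.

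Under AL, of the 7 de novo genes 3 fell (Fasn, Acss2, Acaca) and 1 rose (Slc25a1), and of the 5 genes of NADPH supply Me1 fell while Tkt and Taldo1 rose. Me1 held 98.5, 165 and 615 CPM in Cry WT and 27.5, 69.3 and 136 CPM in Cry KO (-1.22 ± 0.27, adjusted p = 0.000511, lower at 6 of 6 times, with overlap). Its series means were 80.4 and 80.2 CPM in the KO and 226 and 176 CPM in the WT, so both series showed it. Fasn held 367, 693 and 3118 CPM in WT and 325, 511 and 1914 CPM in KO (-0.64 ± 0.25, 0.0419), and lost its call in 6 of 11 alternative fits. Acss2, which activates acetate, fell by 0.77 (0.00909), Gpam by 0.52 and Acaca by 0.39.

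On the higher side, Dgat1 rose from 15.4, 17.0 and 20.8 CPM to 17.8, 20.8 and 31.3 CPM (0.41 ± 0.08, adjusted p = 0.000106). Its KO series differed, at 18.8 and 27.6 CPM. Elovl5 rose from 141, 283 and 457 CPM to 257, 398 and 694 CPM (0.65 ± 0.15, 0.000768), and Elovl1 from 32.5, 46.2 and 57.9 CPM to 41.6, 63.9 and 87.2 CPM (0.49 ± 0.12, 0.000883). Tkt rose from 91.2, 123 and 176 CPM to 125, 157 and 211 CPM (0.37 ± 0.10, 0.00275), and Insig2 by 0.44 ± 0.14 (0.00982), higher at 3 of 6 times. Insig2 lost this call with series as a random effect (adjusted p = 0.188) and without KO series 2 (0.16, 0.705), WT series 2 or WT series 4. Groups overlapped for each of these genes.

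Khk and Taldo1, the transaldolase, show how far the series decided. Khk was called higher under AL (0.54, adjusted p = 0.00468), yet its KO series means were 269 and 536 CPM against 307 and 257 CPM in WT, and without Cry KO series 2 the difference was -0.05. Taldo1 (0.43, 0.00327) had KO series means of 82.8 and 163 CPM and a difference of -0.13 without that series. Agpat2 (0.29) and Slc25a1 (0.32) also turned to -0.02 each. Thrsp (0.58, 0.113) and Srebf1 (-0.38, 0.156) were not called.

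Under RF, Tkt separated the genotypes fully: 90.3, 109 and 122 CPM in Cry WT and 133, 157 and 242 CPM in Cry KO. The difference was 0.61 ± 0.10 (adjusted p = 7.04e-06), higher at 6 of 6 times and called in all 11 alternative fits. Its series means were 107 and 111 CPM in WT and 152 and 184 CPM in KO. Tkfc rose from 125, 290 and 378 CPM to 247, 421 and 858 CPM (0.72 ± 0.14, 0.000234), and Elovl5 from 121, 322 and 541 CPM to 269, 427 and 716 CPM (0.63 ± 0.15, 0.00401), both with overlap.

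Fasn ran from 196 to 1745 CPM in night-fed Cry WT (median 560) and from 207 to 4297 CPM in night-fed Cry KO (median 1180). The difference was 1.01 ± 0.25 (adjusted p = 0.00569), higher at 5 of 6 times. At ZT0 the 2 KO libraries held 2985 and 4297 CPM and the 2 WT libraries 782 and 1745 CPM. Elovl6 at ZT0 held 620 and 660 CPM in the KO and 96.5 and 216 CPM in the WT, although its mean over the day missed the threshold (0.69, 0.0512). Acly rose by 0.73 (0.0288), with 1163 and 1378 CPM at ZT0 in the KO against 367 and 695 CPM in the WT.

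Thrsp under RF held 80.1, 291 and 1798 CPM in Cry WT and 121, 768 and 1987 CPM in Cry KO (1.12 ± 0.29, adjusted p = 0.00926, higher at 4 of 6 times). Insig2 rose by 0.50 ± 0.14 (0.0142), Slc25a1 by 0.37 and Gpam by 0.58. Srebf1 was not called (0.38, 0.338). Mogat1 had no count in either night-fed Cry KO library at ZT4, and no fold is given for it. Agpat3 lies 6.78 Mb from Cry1 and Nr1h3 1.20 Mb from Cry2; neither was called under either regimen.

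**Figure D3:**
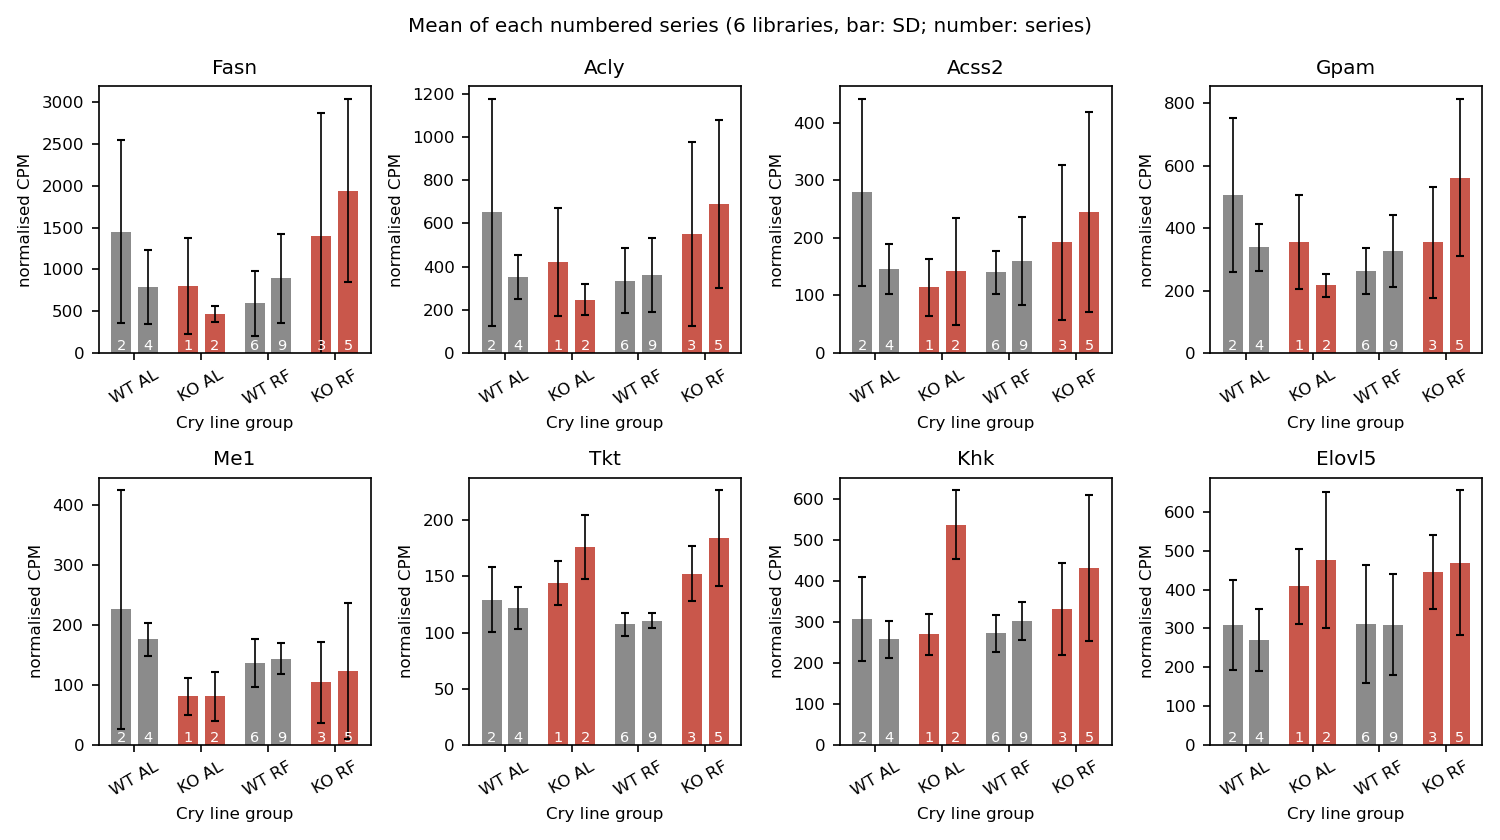
Mean ± SD over the 6 libraries of each numbered series (y axis, CPM) for 8 members in the 4 Cry groups (WT grey, KO red, error bars cut at 0). Tkt in night-fed Cry KO (series means 152 and 184 CPM) is above both night-fed WT series (107 and 111 CPM), whereas Khk in AL Cry KO splits into 269 and 536 CPM around its WT (307 and 257 CPM).

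Within a genotype, the effect of night feeding on mean levels was tested next. In Bmal1 WT, RF against AL lowered 6 members and raised 0 (15.7% of all genes called): Agpat2 (-0.36, adjusted p = 0.00885), Tkt (-0.33, 0.0178), Elovl1 (-0.38, 0.0231), Nr1h3 (-0.23, 0.0308), Taldo1 (-0.35, 0.0338) and Agpat3 (-0.23, 0.0353). The members' share is close to that of all genes. That count was 1 without AL series 1, 1 without RF series 2, 0 without RF series 4 and 0 with series as a random effect; fitted on these groups alone it was 11. Fasn (-0.28, 0.444), Srebf1 (0.12, 0.741), Thrsp (-0.39, 0.355) and Insig2 (-0.25, 0.189) were not called.

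In the Bmal1 KO edgeR called 0 members for feeding (0.545% of all genes), with 8 at an unadjusted p under 0.05 and 1 called by DESeq2; the smallest adjusted p was that of Mid1ip1 (-0.74, 0.0844), and Thrsp gave -0.82 (0.170). In Cry WT edgeR also called 0 (1.59% of all genes), with 10 at an unadjusted p under 0.05 and 0 called by DESeq2; G6pdx came closest (-0.54, 0.0924), and 1 member was called without the night-fed Cry WT series 6. In the Bmal1 KO 1 was called without AL series 1 and 1 without RF series 2.

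In the Cry KO, RF against AL raised 6 members and lowered 2 (18.2% of all genes called). The members' share called is close to that of all genes, of which 800 were raised and 2063 lowered. The members raised were Fasn (1.14 ± 0.25, adjusted p = 0.00125), Acly (0.77, 0.00921), Gpam (0.60, 0.0139), Acaca (0.49, 0.0205), Elovl6 (0.69, 0.0268) and Acss2 (0.64, 0.0484). The members lowered were Nr1h3 (-0.32, 0.00216) and Taldo1 (-0.42, 0.00878). The Fasn series means were 798 and 466 CPM under AL and 1399 and 1941 CPM under RF. The count was 16 without AL series 1, 1 without AL series 2, 3 without RF series 5, 3 without the libraries that stood apart, and 0 both on these groups alone and with series as a random effect. Both tested pancreas markers were also higher in this comparison. Thrsp (0.50, 0.224), Srebf1 (0.51, 0.0832) and Insig2 (0.33, 0.0834) were not called.

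Whether feeding changed the effect of a knockout was tested as a difference of differences. For Bmal1, edgeR called 0 members and 0% of all genes, with 2 members and 1036 genes at an unadjusted p under 0.05 and 0 members by DESeq2. For Cry, 5 members were called, all more positive under RF (6.33% of all genes called): Fasn (1.65 ± 0.35, adjusted p = 0.0174), Gpam (1.09 ± 0.25, 0.0174), Acly (1.22 ± 0.31, 0.0193), Acaca (0.83 ± 0.22, 0.0215) and Acss2 (1.13 ± 0.33, 0.0312). Acly stood at series means of 652 and 352 CPM in AL WT, 421 and 248 CPM in AL KO, 335 and 360 CPM in night-fed WT and 551 and 692 CPM in night-fed KO. None of the 5 was called without Cry KO AL series 2, without Cry KO RF series 5, without Cry WT AL series 2 or without Cry WT RF series 6, nor without the libraries that stood apart or with series as a random effect. Without Cry KO AL series 1, 17 members were called, and without the 3 shallowest libraries 2.

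The difference between the knockout effects of the lines was larger. The Cry effect minus the Bmal1 effect, each against its own WT, was called for 20 members under AL (17 positive, 3 negative; 40.8% of all genes called) and 20 under RF (17 and 3; 15.2%). Thrsp differed most, by 2.42 ± 0.41 log2 units under AL (adjusted p = 6.64e-06) and 3.40 ± 0.42 under RF (6.61e-09), and passed in all 14 alternative fits of each. Under AL the smallest p values belonged to Dgat1 (0.72, 1.15e-06), Khk (1.35, 1.34e-06), Thrsp, Fads2 (1.08, 1.12e-05) and Tkfc (1.09, 1.57e-05). Under RF they belonged to Thrsp, Tkt (0.86, 2.95e-06), Insig2 (-1.16, 6.72e-06), Fads2 (1.08, 1.61e-05) and Tkfc (1.11, 1.83e-05). Scd1 (2.10), Fasn (1.90, 4.63e-05) and Srebf1 (1.33, 0.000752) also differed under RF, but Fasn (0.23, 0.639) and Srebf1 (0.08, 0.858) were not called under AL. Insig2 under AL gave -0.90 (0.000201), from 0.44 in the Cry KO, a call lost in 4 of 11 alternative fits, and 1.34 in the Bmal1 KO. With series as a random effect 10 and 8 members were called. Under AL the count was 12 without Cry KO series 2 and 13 without Bmal1 KO series 1, and under RF 13 without Cry KO series 5. Line and background strain cannot be told apart here.

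**Figure D4:**
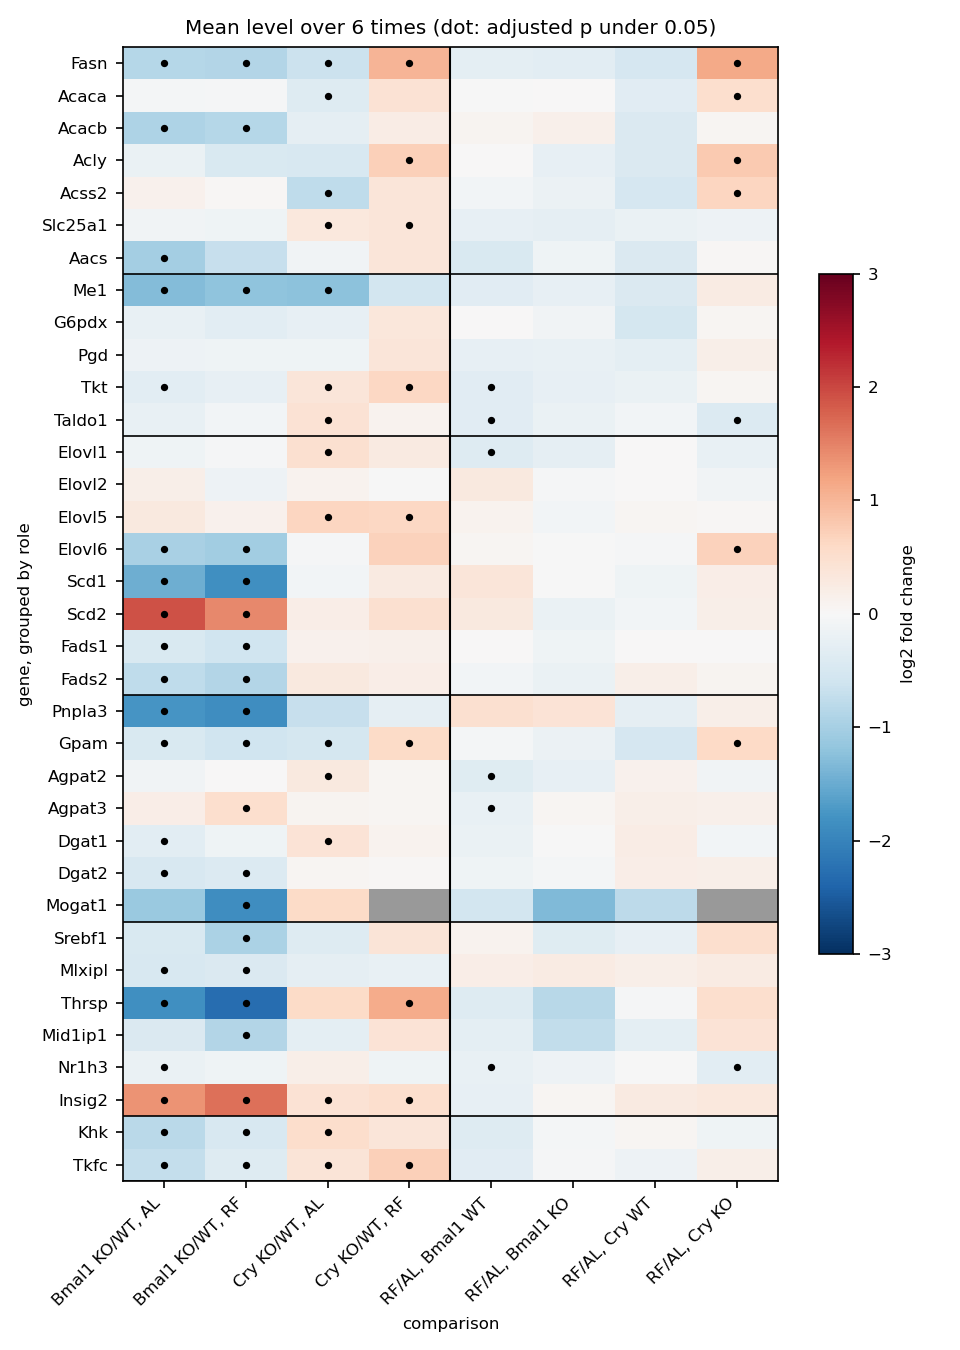
Log2 differences (colour) of the 35 members, ordered by role, in 8 comparisons (columns); a dot marks an adjusted p under 0.05 and grey a comparison with no fold (Mogat1 in night-fed Cry KO). The Bmal1 columns hold 18 and 17 lower members with Insig2 and Scd2 higher, and the Cry RF column holds 9 higher and 0 lower members.

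In the knockouts, members passed as rhythmic under RF and not under AL, but the feeding difference itself was not called. Under AL, edgeR called 0 of 35 members rhythmic in the Bmal1 KO (0.0317% of all genes) and 0 in the Cry KO (0% of all genes), with 7 and 4 members and 919 and 1260 genes at an unadjusted p under 0.05 and 0 members by DESeq2 in each. The fitted ranges of Fasn were still 1.25 and 1.13 log2 units in these groups, so a range of that size did not pass here. Under RF, 4 members passed in the Bmal1 KO (5.26% of all genes) and 15 in the Cry KO (6.63%). That feeding difference was called for 0 members in either knockout (0% of all genes in each; 0 and 14 members and 399 and 1127 genes at an unadjusted p under 0.05; 0 members by DESeq2).

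In the night-fed Bmal1 KO the called genes were Aacs (2.30 log2 units, peak ZT18.2, adjusted p = 0.0197), Mid1ip1 (1.98, ZT21.6, 0.0171), Srebf1 (1.86, ZT23.4, 0.0156) and Elovl1 (0.87, ZT22.2, 0.0341). Srebf1 held 368 and 370 CPM at ZT0 and 30.5 and 165 CPM at ZT12. Thrsp (1.72, 0.130), Fasn (1.62, 0.171) and Insig2 (0.70, 0.237) were not called. All 4 genes were also among those of the night-fed Cry KO, and Srebf1 was rhythmic in no WT group. The count was 1 without the libraries that stood apart and 0 to 2 when either series was left out.

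In the night-fed Cry KO the widest called ranges were those of Fasn (2.61 log2 units, peak ZT21.0, adjusted p = 0.0106), Mid1ip1 (2.50, ZT19.5, 0.00371), Acss2 (2.49, ZT1.40, 0.00112), Aacs (2.48, ZT19.2, 0.0289) and Me1 (2.45, ZT2.83, 0.00229). Me1 held 189 and 241 CPM at ZT0 and 34.0 and 59.5 CPM at ZT16, without overlap. Night-fed Cry KO libraries were shallow at ZT4 (1478963 and 4541141 counts in all) and at ZT12 (8037894 and 4883930). The ZT4 library of series 5 also stood apart by Ctrb1 (252 CPM). Levels at these times are less precise. Srebf1 passed as well (1.91, ZT21.1, 0.0132), and so did Elovl6, Acacb, Acly, Gpam, Pgd, Elovl1, Khk, Tkfc and Mlxipl. Thrsp (1.77, 0.119) and Insig2 (0.62, 0.311) did not. The count was 8 without the libraries that stood apart and 0 to 1 when either series was left out.

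Insig2 was the member whose rhythm differed from WT in all 4 knockout comparisons. This test takes the cosine and sine terms together, so its p covers range and peak time at once. It does not test the range alone. The fitted range of Insig2 was smaller by 1.28 log2 units in the AL Bmal1 KO (adjusted p = 0.000287) and by 1.46 in the night-fed Bmal1 KO (3.15e-05). It was smaller by 2.24 in the AL Cry KO (0.000203) and by 1.58 in the night-fed Cry KO (0.00638). Fitted Insig2 peaks in these KO groups, in that order, were ZT8.3, ZT10.2, ZT17.2 and ZT3.9, against ZT0.232 to ZT1.13 in WT. By edgeR's cosine test the Insig2 rhythm itself was called in none of these KO groups (adjusted p = 0.744, 0.237, 0.992 and 0.311). Their fitted peak times are therefore poorly determined and are not read as a shift of phase. Insig2 was 1 of 1 called members in the first 3 of these comparisons (0.767%, 1.32% and 0.913% of all genes called). At ZT12 Cry KO held 129 and 222 CPM under AL and 163 and 274 CPM under RF, against 52.5 and 53.0 CPM and 78.4 and 79.2 CPM in WT, so each KO pair lay above its WT pair. In the night-fed Cry KO, 3 members were called (2.66%): Insig2, Thrsp (-1.48, 0.00249) and Dgat2 (-0.55, 0.0386). Thrsp at ZT0 held 1349 and 1739 CPM in night-fed Cry KO and 242 and 538 CPM in night-fed Cry WT. The rhythm difference of Thrsp was not called in the other comparisons (-2.51, 0.124; -1.01, 0.487; -2.59, 0.193), nor those of Fasn (1.09, 0.766) and Srebf1 (0.98, 0.279) in the night-fed Cry KO and night-fed Bmal1 KO. The night-fed Cry comparison called 0 members without Cry KO series 5, without Cry WT series 6, or when any difference between times replaced the cosine, and Thrsp alone without Cry KO series 3 or Cry WT series 9. In the AL Bmal1 comparison Insig2 lost its call without Bmal1 KO series 1, while in the night-fed Bmal1 and AL Cry comparisons 1 member was called whichever series was left out.

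**Figure D5:**
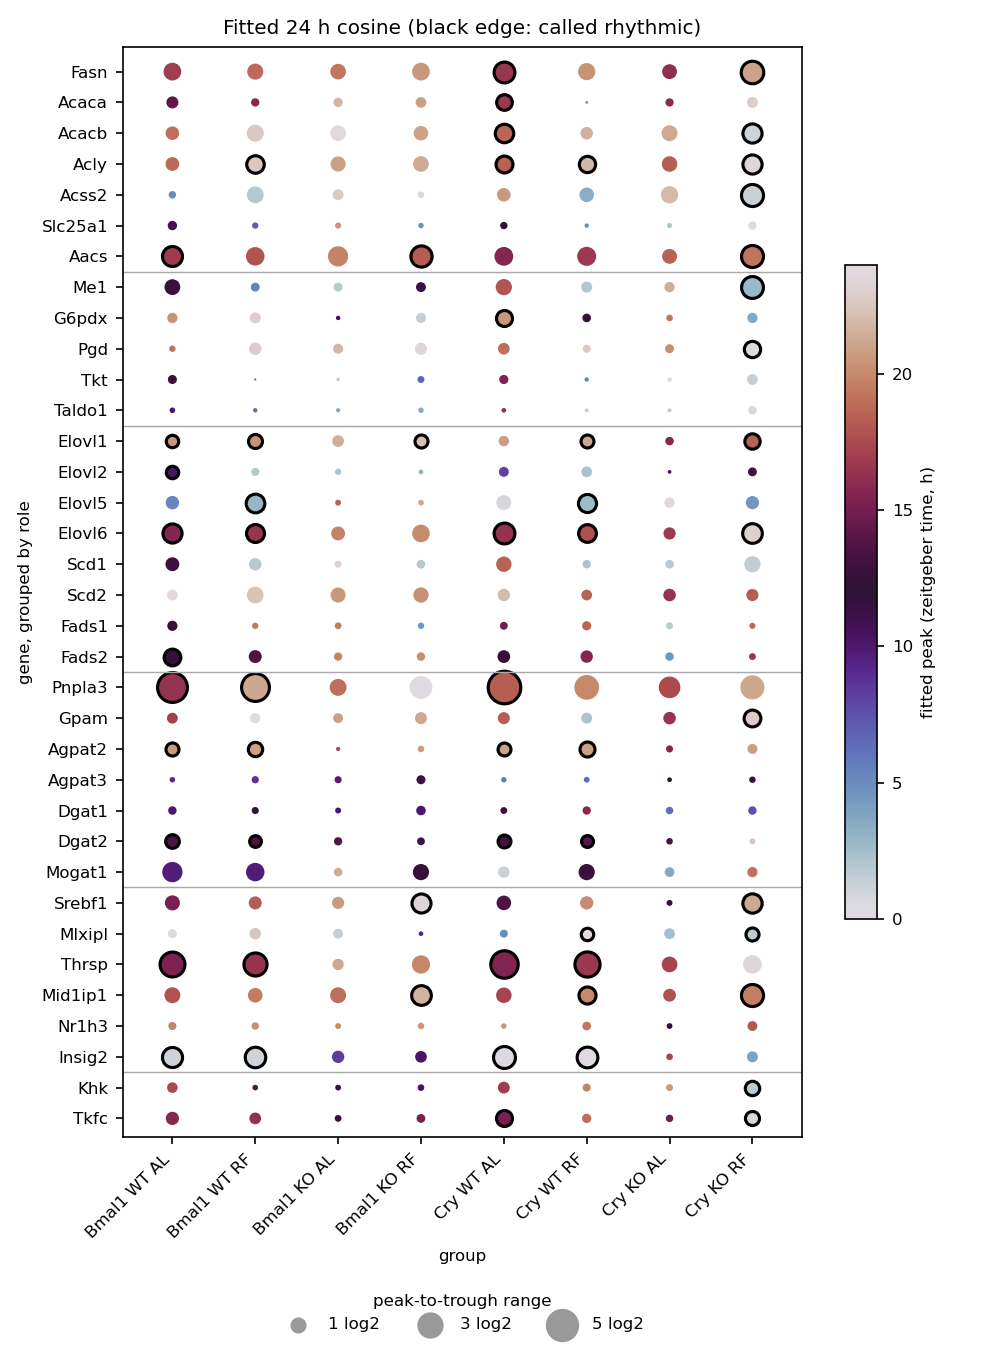
Fitted 24 h cosine of each member (row) in each group (column): dot size is the peak-to-trough range (log2), colour the peak time (h) and a black edge marks a called rhythm. The AL knockout columns hold 0 called genes each, and the night-fed Bmal1 and Cry KO columns hold 4 and 15.

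Promoter windows were searched for the E-box CACGTG, the element that BMAL1 and its partner bind, on both strands, from 250 bases before to 50 after each RefSeq start (GRCm38.p6). Windows were found for 30 of the 35 members. There was none for Fads1, Dgat1, Dgat2, Scd1 and Scd2, so these were not searched. Of the 30, 4 held a CACGTG, against 8.09% of 27025 genes. The stretches around these 4 matches are shown because they are the members whose window holds the element. Capitals mark the match, and each sequence is written 5′ to 3′ on the strand of the gene.
Khk (chr5:30921461-30921520, plus strand): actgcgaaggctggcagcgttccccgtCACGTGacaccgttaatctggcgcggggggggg
Mlxipl (chr5:135089765-135089824, plus strand): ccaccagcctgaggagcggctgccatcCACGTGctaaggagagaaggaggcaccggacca
Elovl5 (chr9:77917177-77917236, plus strand): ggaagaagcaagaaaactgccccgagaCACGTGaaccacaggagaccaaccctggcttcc
Slc25a1 (chr16:17928426-17928469, minus strand): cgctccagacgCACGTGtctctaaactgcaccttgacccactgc
The matches start 71, 98, 161 and 239 bases before the RefSeq start of Khk, Mlxipl, Elovl5 and Slc25a1. For Khk that start lies inside the GENCODE coordinates given above, so its match lies after the GENCODE start. A sterol regulatory element of the letters TCACNCCAC was found in 1 of the 30 members, against 1.44% of genes, 136 bases before another RefSeq start of Mlxipl.
Mlxipl (chr5:135106728-135106790, plus strand): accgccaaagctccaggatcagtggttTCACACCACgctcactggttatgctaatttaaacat
For LXR, only the exact direct repeat of AGGTCA with 4 bases between (DR4) was searched. It was found in 0 of the 30 members and in 0.0148% of genes. So rare a match cannot tell whether the members hold looser LXR sites. A match is a description of these letters, not a bound site.

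Neighbouring genes of the pathway, from 4 lists, gave the setting. Over all genes tested, 2159 rose and 1688 fell in the AL Bmal1 KO (24.4% called), and 1660 and 1584 in the night-fed Bmal1 KO (20.6%). In the AL Cry KO 3102 rose and 2103 fell (33%), and in the night-fed Cry KO 518 and 476 (6.3%). Some list counts lie near these shares, among them the regulators in the night-fed Cry KO and the NADPH routes in the AL Cry KO. Of 21 genes of glucose and pyruvate supply, 2 rose and 10 fell in the AL Bmal1 KO, 4 and 2 in the night-fed Bmal1 KO, 6 and 4 in the AL Cry KO and 6 and 0 in the night-fed Cry KO. The glycolytic enzyme gene Eno1 fell (-0.77, adjusted p = 3.11e-10) and Gckr rose (0.61, 1.84e-07) in the AL Bmal1 KO. Under RF the Bmal1 KO had higher Gckr (0.66, 3.10e-08) and Cs, citrate synthase (0.47, 1.09e-05). In the Cry KO Pfkl (0.55, 1.21e-10) and Pgk1 (0.58, 5.06e-08) rose under AL, and Pgk1 (0.46, 1.18e-05) and Gpi1 (0.44, 0.000101) under RF. Pklr, a ChREBP target, fell under AL in the Bmal1 KO (-0.73, 0.0106) and the Cry KO (-0.60, 0.0318).

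Of 24 other genes of fatty acid and glycerolipid synthesis, 3 rose and 7 fell in the AL Bmal1 KO, 4 and 3 under RF, 8 and 1 in the AL Cry KO and 2 and 0 under RF. Gpat3, which like Gpam acylates glycerol 3-phosphate, fell in the Bmal1 KO by 2.63 (adjusted p = 6.36e-12) and 2.21 (1.85e-09). The elongase Elovl3 rose by 1.93 under AL (3.66e-05), and Hacd2, a dehydratase of the elongation cycle, by 0.48 under RF (1.58e-05). In the Cry KO the thioesterases Acot4 (0.76, 0.00339) and Acot1 (1.30, 0.00497) rose under AL, and Acsl3 (0.51, 0.0286) and Acot4 (0.66, 0.0386) under RF.

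Of 21 regulators around SREBP1c, LXR and ChREBP, 5 rose and 4 fell in the AL Bmal1 KO, 1 and 4 under RF, 5 and 5 in the AL Cry KO and 1 and 0 under RF. Abcg5, an LXR target and sterol transporter, rose (0.72, adjusted p = 0.000707) and Lpcat3 fell (-0.37, 0.00148) in the AL Bmal1 KO, where Insig2 rose. Insig1, the other INSIG gene, fell in the night-fed Bmal1 KO (-0.59, 0.00355), opposite to Insig2, as did Mlx, the partner of ChREBP (-0.29, 0.00302). In the Cry KO, Usf2 (0.31, 0.00154) and Usf1 (0.32, 0.00331) rose under AL and Lpcat3 (0.29, 0.0405) under RF.

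Of 11 genes listed under other NADPH routes or steps beside them, 0 rose and 4 fell in the AL Bmal1 KO. The counts were 1 and 4 in the night-fed Bmal1 KO, 3 and 0 in the AL Cry KO and 4 and 0 in the night-fed Cry KO. Levels of these genes do not measure NADPH supply. Idh2, the mitochondrial isocitrate dehydrogenase, fell in the AL Bmal1 KO (-0.55, adjusted p = 4.09e-06) and rose in the Cry KO (0.62, 8.31e-07, under AL and 0.36, 0.00772, under RF). Rpia of the pentose phosphate path fell in the Bmal1 KO (-0.43, 0.0164, and -0.62, 0.000661). Mthfd1l, a folate enzyme of mitochondria, held 0.551, 1.34 and 5.02 CPM in AL Cry WT and 11.0, 16.7 and 24.7 CPM in AL Cry KO, with no overlap (3.34, 1.97e-13). Under RF it held 0.290, 0.926 and 9.57 CPM in WT and 10.2, 13.7 and 26.9 CPM in KO, again apart (3.47, 4.10e-13), and in the night-fed Bmal1 KO it fell by 1.68 (4.69e-05).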

How the data were processed

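Liver RNA was sequenced in 96 libraries made with the TruSeq Stranded mRNA kit from 250 ng of RNA, 11 amplification cycles and 100 paired read cycles, per the labels' protocols. The deposited table holds raw read counts per Ensembl gene made by the authors, and the submitters' processing notes name STAR 2.4.0i and the build mm10; what counted the reads, with which annotation and strand setting, is not given in the sources used here. Symbols and exon lengths came from GENCODE M21 (55154 of 55421 identifiers matched; the rest held 0.0449% of counts). The genes and lists were chosen with earlier results of these data known.

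From the counts, genes passing edgeR's filterByExpr (minimum count 10, minimum total 15; 15772 genes with 99.94% of counts) were scaled by TMM (factors 0.723 to 1.16) and fitted with edgeR 4.0.16 (R 4.3.3) quasi-likelihood over all 48 group and time cells of 2 libraries. Contrasts averaged the 6 times; rhythms used a 24 h cosine per group. Adjusted p values are Benjamini-Hochberg over all tested genes. RPKM used the summed exon length. The code was tested on simulated data with independent libraries, for AL Bmal1 KO against WT and for rhythms in night-fed Bmal1 WT. The mean-level test found 49% of planted changes of 0.5 log2 units and 89% of those of 1, with 3.5% false among the called. The rhythm test found 14% of planted ranges of 0.7 log2 units and 49% of those of 1.5, with 7.35% false. A gene not called rhythmic may therefore still be rhythmic. Within a cell, the 2 libraries differed beyond counting noise (chi-square per degree of freedom 10.14 to 744.44), so neither repeats the other. Libraries of different cells were not compared in this way. Totals of 1478963 to 35568856 counts set the precision of low genes. Alternatives were DESeq2 1.42.0, limma 3.58.1 voom with series as a random effect (within-series correlation 0.248), DESeq2-type size factors, no filter, the compared groups alone, a replicate block, any difference between times, and fits without the libraries that stood apart, the 3 shallowest, or each series in turn. Genes named with full statistics were the up to 5 called members with the smallest adjusted p (rhythms: widest range) in each comparison, with Fasn, Srebf1, Thrsp and Insig2 always, up to 2 called genes per other list, and Pklr (1 further gene of this rule is not reported here); others named were picked after their values were seen.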

Additional observations from a re-analysis of the deposited data

Results flagged for a closer look

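For 5 members the Cry knockout effect differed between the feeding regimens (RF minus AL, log2): Fasn by 1.65, Acly by 1.22, Acss2 by 1.13, Gpam by 1.09 and Acaca by 0.83. All 5 differences had a positive sign, and edgeR's test of the difference itself singled them out. None of the 5 was called with series as a random effect (adjusted p = 0.756 for Fasn, Acly, Gpam and Acaca and 0.775 for Acss2), without Cry KO AL series 2, Cry KO RF series 5, Cry WT AL series 2 or Cry WT RF series 6, or without the libraries that stood apart.

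The effect of the Cry knockout minus that of the Bmal1 knockout passed its own test for 20 members under AL. The desaturases and elongases gave Scd1 1.38, Fads2 1.08, Elovl6 0.94, Elovl1 0.63, Fads1 0.60 and Scd2 -1.70 log2 units. The regulators gave Thrsp 2.42, Nr1h3 0.38 and Insig2 -0.90, and the fructose genes gave Khk 1.35 and Tkfc 1.09. Synthesis and NADPH supply gave Aacs 0.91, Slc25a1 0.44, Tkt 0.68, Taldo1 0.66 and Acss2 -0.90. Triglyceride assembly gave Dgat1 0.72, Dgat2 0.55, Agpat2 0.39 and Mogat1 1.68, the last at levels under 2 CPM in both Bmal1 AL groups and at -0.43 without Bmal1 WT AL series 8. With series as a random effect 10 members were called: Thrsp, Insig2, Khk, Tkfc, Dgat1, Dgat2, Tkt, Taldo1, Fads2 and Scd2. Of these, Taldo1 lost its call without Cry KO AL series 2 (0.10, adjusted p = 0.567), and the others kept theirs in all 14 alternative fits.

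Under RF the same difference passed for 20 members. It was 3.40 for Thrsp, 1.33 for Srebf1, 1.31 for Mid1ip1 and -1.16 for Insig2 among the regulators. It was 2.10 for Scd1, 1.74 for Elovl6, 1.08 for Fads2, 0.74 for Fads1 and -0.96 for Scd2 among desaturases and elongases. Fasn gave 1.90, Acly 1.18, Acacb 1.08, Aacs 1.06, Slc25a1 0.51 and Tkt 0.86. Gpam gave 1.17, Dgat2 0.44, Agpat3 -0.45, Khk 0.84 and Tkfc 1.11. With series as a random effect 8 were called, and these kept their call in all 14 alternative fits: Thrsp, Insig2, Elovl6, Tkt, Fasn, Fads2, Tkfc and Scd1. Scd2 lost its call in 11 of the 14, Aacs in 8 and Slc25a1 in 7. The differences between lines rest on 2 separate WT groups, and line and strain cannot be told apart.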

How the results depend on the processing

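Of 186 counts of called members under settings that keep every series, 142 stayed within 1.5 times the count reported; of 112 counts with a series left out, 71 did. Both tallies include comparisons with a reported count of 0, where a repeated 0 was taken as within 1.5 times. The AL knockout rhythms and the Bmal1 difference between feedings are among these. The tallies therefore do not measure the stability of the called members alone. With series as a random effect, 8 and 8 members were called in the Bmal1 KO (AL, RF), 1 and 1 in the Cry KO, 0 for feeding in Bmal1 WT, 0 for feeding in Cry KO, 0 for the Cry difference between feedings, and 10 and 8 for Cry minus Bmal1. Fitting the compared groups alone gave 7 (AL Cry KO), 11 (feeding, Bmal1 WT) and 0 (feeding, Cry KO). Without the libraries that stood apart, counts were 2 (night-fed Cry KO), 1 and 3 (feeding, Cry WT and Cry KO), 0 (Cry difference between feedings), and 1 and 8 rhythms (night-fed Bmal1 KO and Cry KO); without the 3 shallowest, the Cry difference gave 2. DESeq2 gave 1 for feeding in Bmal1 KO and 2 and 2 rhythm differences for Bmal1 (AL, RF). Any difference between times gave 1 rhythm in night-fed Bmal1 KO and 0 rhythm differences for night-fed Cry.

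Without a filter on low counts more was called, and the cause was not tested: 19 (night-fed Cry KO), 11, 3 and 9 (feeding in Bmal1 WT, Bmal1 KO, Cry WT), 14 (Cry difference), rhythms 20, 21, 8 and 13 (Bmal1 WT AL, WT RF, KO AL, KO RF) and 24, 17 and 11 (Cry WT AL, WT RF, KO AL), rhythm differences 11, 8, 11 and 14 (Bmal1 AL, RF, Cry AL, RF) and, between feedings, 7, 2, 14 and 14.

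With each series dropped in turn, edgeR called 12 to 19 and 14 to 15 members (Bmal1 KO, AL and RF), 1 to 23 and 1 to 11 (Cry KO), 0 to 5, 0 to 1, 0 to 1 and 1 to 16 (feeding in Bmal1 WT, Bmal1 KO, Cry WT, Cry KO), 0 to 0 and 0 to 17 (differences between feedings, Bmal1 and Cry), and 12 to 20 and 13 to 19 (Cry minus Bmal1). Rhythms came to 3 to 4, 1 to 2, 0 to 0 and 0 to 2 in Bmal1 WT AL, WT RF, KO AL and KO RF, and to 2 to 6, 1 to 6, 0 to 0 and 0 to 1 in the Cry groups in that order. Rhythm differences came to 0 to 1, 1 to 1, 1 to 1 and 0 to 1, and between feedings to 0 to 0 in all 4. Such a fit has 1 library per time in that group, which is assumed to vary like the others. Without Cry KO AL series 2, signs turned in the AL Cry KO for Agpat2 (-0.0176; up to 0.522 over the series left out), Khk (-0.0536; up to 0.914), Taldo1 (-0.134; up to 0.809) and Slc25a1 (-0.0201; up to 0.555), and between feedings for Taldo1 (0.149; down to -0.783). Without Bmal1 WT AL series 8, Mogat1 turned to -0.431 in Cry minus Bmal1 (up to 2.48).

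With the replicate block, fitted for the Bmal1 line, where WT and KO share series numbers, 19 (AL) and 21 (RF) members were called. The labels do not say what the numbers mark, there are only 2 pairs, and same-numbered series deviated together weakly (correlation 0.182 and 0.218), which does not settle whether the numbers pair the libraries. Depth limits Pnpla3 and Mogat1, which had no count in 2 and 8 libraries.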
